A study of Caenorhabditis elegans with 44 samples.

Results

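The 4 genes described here, alg-1, alg-2, ain-1 and ain-2, encode the proteins that act on microRNAs in the nematode Caenorhabditis elegans. They were chosen by their gene identifiers, and are 4 of the 22013 entries of the mRNA table of the N2 series. ALG-1 and ALG-2 are the Argonaute proteins that hold most mature microRNAs and carry them to their target mRNAs. AIN-1 and AIN-2 are the worm's proteins of the GW182 family: they bind the loaded Argonautes and bring in the enzymes that shorten poly(A) tails and repress translation. In each pair the paralogs overlap in function, and together they are required for developmental timing in larvae, the process in which microRNAs were first described.

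The study asked how PALS-22, a repressor of the response to intracellular pathogens, affects small RNA pathways, and sequenced mRNA and small RNAs from whole, starved worms of the first larval stage in 44 libraries. In the N2 background the mRNA libraries came from rrf-3(pk1426);pals-22(pig26) worms (2 libraries), rrf-3(pk1426) worms (3), pals-22(pig26) worms (3) and wild type (2), and the small RNA libraries from pals-22(pig26) worms (3) and wild type (3). In the otIs356 background, in which every worm including wild type carries a transgene array with a red fluorescent reporter under the pan-neuronal rab-3 promoter, mRNA and small RNAs were each sequenced from vsra-1(tm1637);pals-22(pig26) worms (3), vsra-1(tm1637) worms (4), pals-22(pig26) worms (3) and wild type (4). The pig26 allele is a deletion made in pals-22 by genome editing, RRF-3 is an RNA-dependent RNA polymerase of the endogenous small RNA pathway, and VSRA-1 is an Argonaute of the worm-specific class. Below, the 2 strains with a pair of mutations are called the rrf-3 double mutant and the vsra-1 double mutant. Each mutant is represented by 1 strain, and the labels do not say whether replicate libraries came from separate cultures, so the p-values measure the spread between these libraries only.

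alg-1 (WBGene00000105) lies on the forward strand of chromosome X at 13949110 to 13956261 of the WBcel235 assembly, has 4 annotated transcripts of 3072 to 6283 bases, and contains a small nucleolar RNA gene, K02B9.10, on the same strand. alg-2 (WBGene00000106) is on chromosome II at 873212 to 879885 with 2 transcripts of 3160 and 4142 bases. ain-1 (WBGene00015547) is on chromosome X at 16613451 to 16616871 with 1 transcript of 2592 bases, and ain-2 (WBGene00015007) on chromosome I at 4653467 to 4660153 with 8 transcripts of 2247 to 3137 bases. All 4 are protein-coding genes on the forward strand. On the reverse strand, the noncoding RNA gene C06G1.12 (X, 16615872 to 16616020) shares 149 bases with the span of ain-1 and the noncoding RNA gene T07D3.11 shares 201 bases with that of alg-2, both within introns and with 0 exon bases in common.

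Library totals were 36498609 to 61806727 in the N2 mRNA table, 5479218 to 33903511 in the otIs356 mRNA table, 11483077 to 43362769 in the N2 small RNA table and 7950015 to 21594026 in the otIs356 small RNA table. rrf-3 mRNA was 1.91 to 1.99 CPM in rrf-3 worms, against 5.46 and 6.29 CPM in wild type. pals-22 mRNA was not lower in the mutant: it was 45.4 to 51.5 CPM in pals-22 worms, against 26.5 and 26.8 CPM in N2 wild type, so its level does not check the label of this deletion allele. vsra-1 mRNA was 9.31 to 11.7 CPM in vsra-1 worms and 11.6 to 14.8 CPM in otIs356 wild type, and likewise cannot check that label. CPM here are counts relative to library size, with sizes corrected by the trimmed mean of M-values (TMM). The mRNA tables hold estimates already divided by transcript length, so mRNA CPM can be compared between genes, and a change was called at an adjusted p under 0.1 in edgeR's quasi-likelihood test (two-sided, Benjamini-Hochberg over all genes tested).

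Because alg-1 and alg-2 are close paralogs, their sequences bear on whether reads of one could be given to the other. Their longest coding sequences, 3069 and 2730 bases, had the same base at 78.5% of the 2681 aligned positions, but no run of 31 bases, the word length that the pseudoaligner uses by default, was shared by their transcripts. The longest run they shared was 26 bases, in exon 5 of each gene. The surrounding windows, from the reference genome of this assembly, are shown with the shared bases in capitals. The alg-1 window is chrX:13953210-13953269 and the alg-2 window is chrII:876395-876454, both on the forward strand and both within coding sequence.
alg-1: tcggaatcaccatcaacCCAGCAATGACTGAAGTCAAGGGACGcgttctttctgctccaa
alg-2: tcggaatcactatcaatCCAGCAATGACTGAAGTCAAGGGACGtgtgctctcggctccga
Outside the capitals the windows differ at single positions. A small RNA read that lies wholly within the capitals matches both genes and cannot be assigned to either. The coding sequences of ain-1 and ain-2 shared no run longer than 18 bases. Of all 31-base words, 0.99% of those of alg-1 occurred in another gene, all in K02B9.10, and 2.75% of those of alg-2, nearly all in C07A9.10, while ain-1 and ain-2 shared none. Of 22-base words, nearer the length of small RNA reads, 1.20% of those of alg-1 and 3.74% of those of alg-2 occurred in another gene, and 0 of those of ain-1 and ain-2.

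All 4 genes were expressed in every mRNA library. In the N2 table ain-2 ranged from 72.9 to 126 CPM over the 10 libraries, ain-1 from 78.8 to 129 CPM, alg-1 from 37.6 to 76.3 CPM and alg-2 from 16.2 to 22.9 CPM. On this per-length scale the ain genes were at similar levels and above alg-1, and alg-2 was the lowest of the 4 in each library. In the otIs356 table, over 14 libraries, the ranges were 61.6 to 126 CPM for ain-2, 64.6 to 123 CPM for ain-1, 27.7 to 70.2 CPM for alg-1 and 13.2 to 36.9 CPM for alg-2.

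In N2 worms without PALS-22, 3 of the 4 genes were lower and alg-2 was not. alg-1 had 59.95, 48.3 and 61.5 CPM in pals-22 worms, against 65.4 and 76.3 CPM in wild type. All pals-22 libraries lay below both wild-type libraries, and the log2 fold change was -0.32 ± 0.11 (SE; adjusted p = 0.051, edgeR). ain-1 had 96.3, 78.8 and 103 CPM in pals-22 worms, against 111 and 129 CPM in wild type, again without overlap, and its log2 fold change was -0.37 ± 0.12 (adjusted p = 0.036, edgeR). ain-2 had 82.2, 72.9 and 95.9 CPM in pals-22 worms, against 107 and 126 CPM in wild type, and fell by 0.48 ± 0.12 on the log2 scale (adjusted p = 0.012, edgeR). The groups did not overlap for this gene either. alg-2 had 18.6, 16.4 and 20.9 CPM in pals-22 worms, against 16.2 and 19.3 CPM in wild type, which overlap, and its log2 fold change was 0.07 ± 0.12 (adjusted p = 0.66, edgeR).

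These 3 calls stand among very many: 27.8% of the 18986 genes tested in this comparison were called lower and 23.3% were called higher, so calls were common. RNA came from whole worms, in which fewer cells of a type and less RNA per cell cannot be told apart. The alg-1 and ain-1 calls were lost without wild-type library 2 (log2 fold changes of -0.22 and -0.27, adjusted p = 0.30 and 0.23, edgeR), and when only the 5 libraries of these groups were fitted (adjusted p = 0.18 and 0.13, edgeR). Under scaling by library totals the median of all genes moved by 0.18 on the log2 scale, and the log2 fold changes of alg-1, ain-1 and ain-2 became -0.13, -0.18 and -0.29 (adjusted p = 0.51, 0.36 and 0.17, edgeR), none of them called. With that scaling the pals-22 and wild-type libraries overlapped for each of these genes.

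In worms without RRF-3 the 2 Argonaute genes moved in opposite directions. alg-1 had 42.1, 43.8 and 45.5 CPM in rrf-3 worms, against 65.4 and 76.3 CPM in wild type, and changed on the log2 scale by -0.69 ± 0.11 (adjusted p = 0.00086, edgeR). After TMM scaling the rrf-3 libraries were close together and far below both wild-type libraries. By library totals alone the groups overlapped, at 47.5, 55.2 and 49.3 CPM against 54.9 and 63.9 CPM. alg-2 had 22.8, 19.8 and 22.1 CPM in rrf-3 worms, against 16.2 and 19.3 CPM in wild type, and changed on the log2 scale by 0.28 ± 0.12 (adjusted p = 0.081, edgeR), with the lowest rrf-3 library just above the highest wild-type one. ain-1, with 90.3, 86.2 and 94.3 CPM in rrf-3 worms against 111 and 129 CPM in wild type, fell by 0.41 ± 0.12 on the log2 scale (adjusted p = 0.016, edgeR). ain-2 had 103, 104.5 and 109 CPM in rrf-3 worms, against 107 and 126 CPM in wild type, with overlapping groups and a log2 fold change of -0.15 ± 0.12 (adjusted p = 0.30, edgeR).

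So 2 members were called lower and 1 higher, where 35.8% of all genes tested were called lower and 31.9% higher. With library totals the median of all genes moved up by 0.46 on the log2 scale. Of the called members, ain-1 then turned to 0.05 and was not called, and ain-2, called under neither scaling, turned to 0.32, while alg-1 stayed negative at -0.23 (adjusted p = 0.20, edgeR) and alg-2 reached 0.74 (adjusted p = 0.0026, edgeR). The alg-2 call was lost without rrf-3 library 1, rrf-3 library 3 or wild-type library 1, where its log2 fold change ranged from 0.15 to 0.26, and the ain-1 call without wild-type library 2 (-0.31, adjusted p = 0.12, edgeR).

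**Figure D1:**
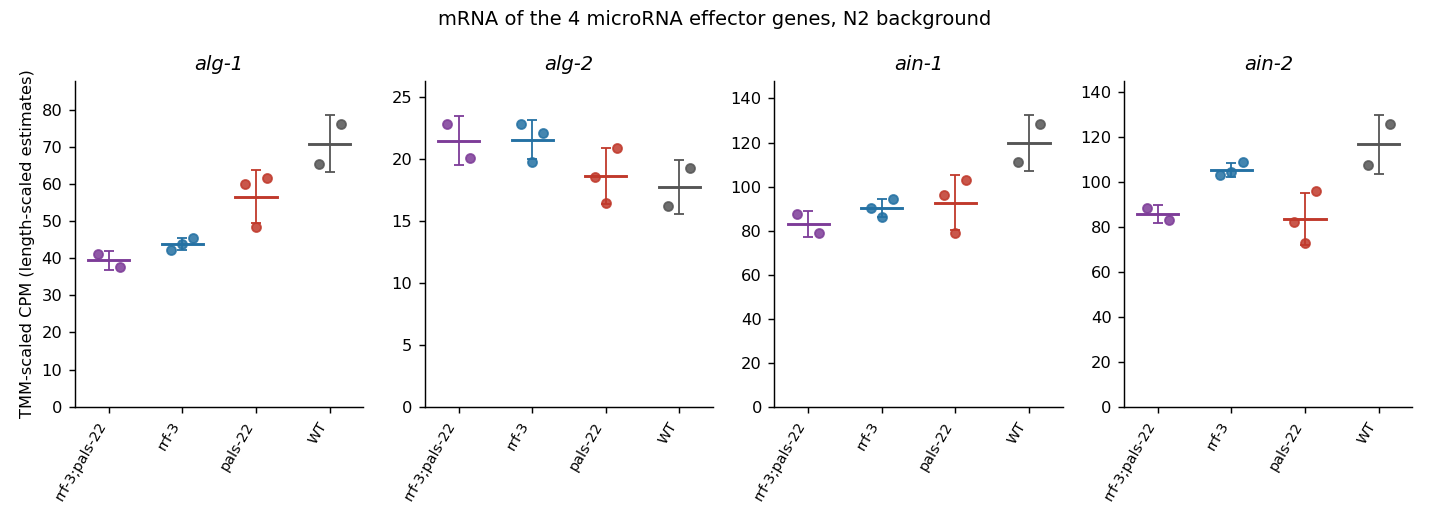
mRNA of alg-1, alg-2, ain-1 and ain-2 in the N2 background, in CPM after TMM scaling, with 1 point per library, a line at each group mean and bars of 1 SD. alg-1 is lowest in the rrf-3 double mutant (37.6 and 41.2 CPM) and in rrf-3 worms and highest in wild type, while alg-2 spans only 16.2 to 22.9 CPM.

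The rrf-3 double mutant was set against each single mutant. Against pals-22 worms alg-1 was lower: 41.2 and 37.6 CPM in the double mutant, against 59.95, 48.3 and 61.5 CPM in pals-22 worms, a log2 fold change of -0.52 ± 0.12 (adjusted p = 0.014, edgeR). It was the 1 member called, where 17% of all genes tested were called lower and 18.5% higher, and the call was lost without library 2 of the double mutant (-0.43, adjusted p = 0.12, edgeR). alg-2 had 22.9 and 20.1 CPM in the double mutant, against 18.6, 16.4 and 20.9 CPM in pals-22 worms (log2 fold change 0.20 ± 0.12, adjusted p = 0.25, edgeR). ain-1 had 87.3 and 78.9 CPM in the double mutant and 78.8 to 103 CPM in pals-22 worms, and ain-2 had 88.6 and 83.0 CPM and 72.9 to 95.9 CPM, so both overlapped. The ain-1 call appeared (-0.26, adjusted p = 0.10, edgeR) without library 2 of pals-22 worms.

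Against rrf-3 worms no member was called in the rrf-3 double mutant (edgeR), where 7.45% of all genes tested were called. At an unadjusted p under 0.05, 1 member passed, and DESeq2 called 1. That member was ain-2, at 88.6 and 83.0 CPM in the double mutant, against 103, 104.5 and 109 CPM in rrf-3 worms, which do not overlap, and its log2 fold change was -0.30 ± 0.12 (adjusted p = 0.22, edgeR). alg-1, at 41.2 and 37.6 CPM in the double mutant and 42.1 to 45.5 CPM in rrf-3 worms, differed by -0.15 on the log2 scale with a 95% interval of -0.42 to 0.11. The interaction, which asks whether losing RRF-3 acts differently with and without PALS-22, was called for no member in edgeR (unadjusted p under 0.05 for 0 members and 0 called by DESeq2), where 37.1% of all genes tested were called. For alg-1 it was 0.17 with a 95% interval of -0.20 to 0.54.

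The ratio of alg-1 to alg-2 within a library does not depend on how libraries are scaled. It was 1.799 and 1.87 in the rrf-3 double mutant, 1.85, 2.21 and 2.06 in rrf-3 worms, 3.22, 2.93 and 2.94 in pals-22 worms, and 4.03 and 3.95 in wild type. The rrf-3 worms overlapped the double mutant, and pals-22 worms lay between those and wild type. The mean log2 ratio was lower by 0.97 ± 0.08 (SE) in rrf-3 worms than in wild type, by 0.40 ± 0.05 in pals-22 worms than in wild type, and by 0.72 ± 0.05 in the double mutant than in pals-22 worms. Each of these had p = 0.10 in a two-sided exact permutation test, which is the smallest that 2 against 3 libraries allow, and an adjusted p of 0.20 over the 16 ratio tests. Leaving out any 1 library kept the sign of these 3 differences.

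The ratio of ain-1 to ain-2 was 0.986 and 0.951 in the rrf-3 double mutant, 0.878, 0.825 and 0.865 in rrf-3 worms, 1.17, 1.08 and 1.07 in pals-22 worms, and 1.03 and 1.02 in wild type. The mean log2 ratio differed by -0.26 ± 0.03 (SE) between rrf-3 worms and wild type (p = 0.10, exact permutation test, the smallest possible), by 0.11 ± 0.04 between pals-22 worms and wild type (p = 0.20, exact permutation test), and, for the double mutant, by 0.18 ± 0.04 from rrf-3 worms and -0.19 ± 0.05 from pals-22 worms (p = 0.10 each, exact permutation test, the smallest possible), without overlap in either case. No adjusted p over the 16 tests was under 0.1.

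**Figure D2:**
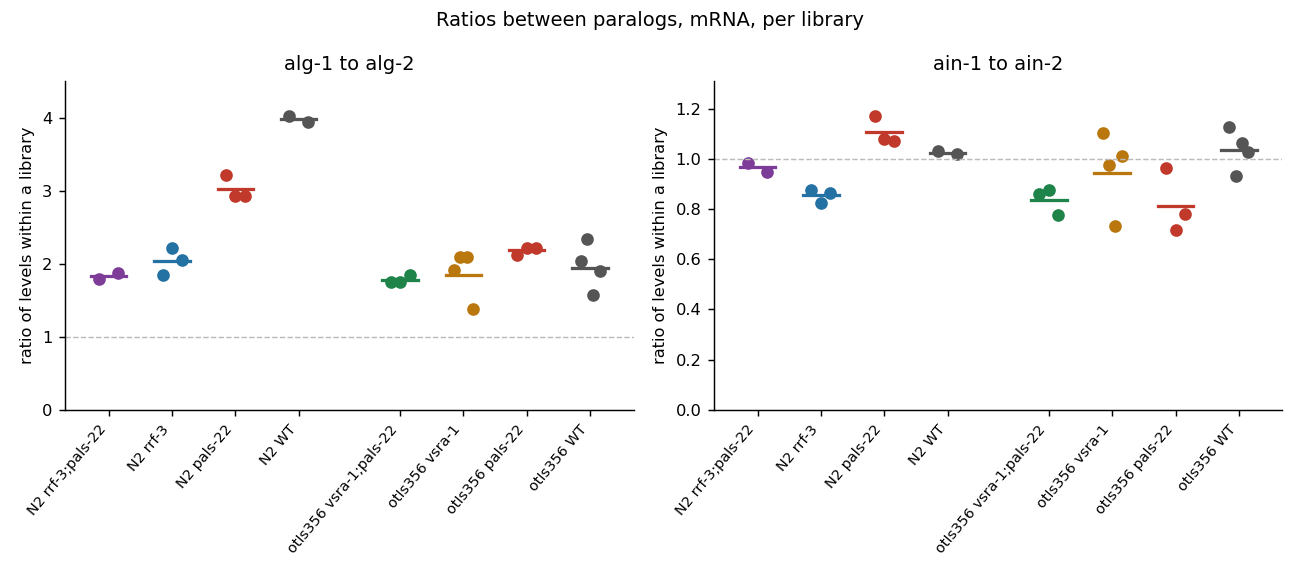
Ratio of alg-1 to alg-2 (left) and of ain-1 to ain-2 (right) within each mRNA library, with 1 point per library and a line at the geometric mean of each group. In N2 the alg ratio lies near 4 in wild type (3.95 and 4.03) and between 1.799 and 2.21 in rrf-3 worms and the rrf-3 double mutant, while in otIs356 all groups lie between 1.38 and 2.34.

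In the otIs356 background no member's mRNA was called in any comparison, and the replicates were further apart. alg-1 had 55.0, 48.1 and 53.7 CPM in pals-22 worms, against 37.3, 55.0, 30.8 and 70.2 CPM in wild type, so that all pals-22 libraries fell inside the wild-type range. The log2 fold change was 0.11 ± 0.28 (adjusted p = 0.81, edgeR). alg-2 had 25.99, 21.6 and 24.1 CPM in pals-22 worms, against 18.3, 23.5, 19.4 and 36.9 CPM in wild type, ain-1 97.5, 90.5 and 88.9 CPM against 84.3, 104.4, 102 and 123 CPM, and ain-2 101, 126 and 114 CPM against 74.8, 112, 95.5 and 119.7 CPM. All 4 genes overlapped between the groups. No member was called and none had an unadjusted p under 0.05 (edgeR; 0 called by DESeq2), where 10.9% of the 16724 genes tested were called.

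The wild-type spread was shared by the members: library 4 was the highest of the otIs356 wild-type libraries for alg-1, alg-2, ain-1 and ain-2. The SD of alg-1 in otIs356 wild type was 36.9% of its mean (n = 4), against 10.9% in N2 wild type (n = 2). The 95% interval of the alg-1 change in otIs356 ran from -0.48 to 0.71 and so includes the -0.32 seen in N2. In a fit of both backgrounds, the pals-22 change of ain-2 mRNA in otIs356 minus that in N2 was 0.65 ± 0.30 (adjusted p = 0.45, edgeR), that of alg-1 0.43 ± 0.36, that of ain-1 0.20 ± 0.23 and that of alg-2 -0.11 ± 0.40. None was called, where 0.552% of the 18652 genes tested were called. The 2 backgrounds were sequenced as separate sets, so strain background and experiment cannot be told apart.

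In vsra-1 worms the group means of all 4 genes were below those of wild type, within the spread of the libraries. alg-1 had 28.2, 27.7, 34.7 and 41.0 CPM in vsra-1 worms, against 37.3, 55.0, 30.8 and 70.2 CPM in wild type (log2 fold change -0.56 ± 0.26, adjusted p = 0.40, edgeR). ain-1 had 68.1, 64.6, 81.0 and 96.8 CPM in vsra-1 worms, against 84.3, 104.4, 102 and 123 CPM in wild type (-0.41 ± 0.16, adjusted p = 0.31, edgeR), and was the 1 member with an unadjusted p under 0.05. alg-2 and ain-2 had log2 fold changes of -0.40 ± 0.29 and -0.27 ± 0.21. All groups overlapped, no member was called by edgeR or by DESeq2, and 0.00598% of all genes tested, a single gene, were called.

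**Figure D3:**
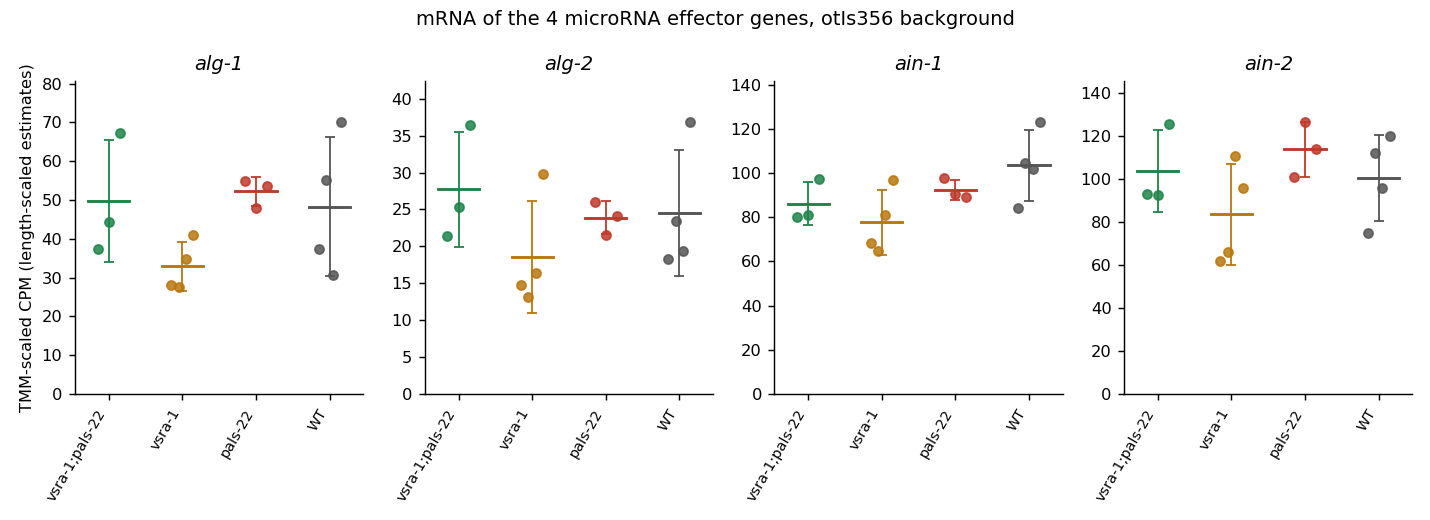
mRNA of the 4 genes in the otIs356 background, in CPM after TMM scaling, with 1 point per library, a line at each group mean and bars of 1 SD. Each pair of groups compared overlaps for every gene, and alg-1 in wild type runs from 30.8 to 70.2 CPM.

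In the vsra-1 double mutant alg-1 had 37.4, 44.4 and 67.4 CPM, against 55.0, 48.1 and 53.7 CPM in pals-22 worms and 28.2, 27.7, 34.7 and 41.0 CPM in vsra-1 worms. The log2 fold change was -0.07 ± 0.30 against pals-22 worms and 0.60 ± 0.28 against vsra-1 worms (adjusted p = 1 and 0.22, edgeR). alg-2 had 21.4, 25.3 and 36.5 CPM in the double mutant, against 25.99, 21.6 and 24.1 CPM in pals-22 worms and 14.7, 13.2, 16.4 and 29.8 CPM in vsra-1 worms, and differed from vsra-1 worms by 0.58 ± 0.31 (adjusted p = 0.29, edgeR). ain-1 was 80.2 to 97.5 CPM and ain-2 92.2 to 125 CPM in the double mutant, and both overlapped each single mutant. Against pals-22 worms no member was called or had an unadjusted p under 0.05 in edgeR (0 called by DESeq2), where 0.00598% of all genes tested were called. Against vsra-1 worms no member was called in edgeR (1 had an unadjusted p under 0.05 and 0 were called by DESeq2), where 10.9% of all genes tested were called. Without vsra-1 library 4, which had 29.8 CPM of alg-2, the alg-2 difference from vsra-1 worms was 0.89 and called (adjusted p = 0.078, edgeR). The interaction of vsra-1 and pals-22 was called for no member in edgeR (0 with an unadjusted p under 0.05, 0 called by DESeq2), where 0.00598% of genes were called.

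The alg-1 to alg-2 ratio in otIs356 was 1.75, 1.75 and 1.85 in the vsra-1 double mutant, 1.91, 2.09, 2.10 and 1.38 in vsra-1 worms, 2.12, 2.22 and 2.22 in pals-22 worms, and 2.03, 2.34, 1.58 and 1.90 in wild type. It was lower in the double mutant than in pals-22 worms without overlap, by 0.29 ± 0.03 on the log2 scale (p = 0.10, exact permutation test, the smallest that 3 against 3 allow, adjusted p = 0.20). pals-22 worms and wild type overlapped (difference 0.17 ± 0.12, p = 0.31, exact permutation test). The ain-1 to ain-2 ratio was 0.863, 0.876 and 0.777 in the vsra-1 double mutant, 1.11, 0.977, 0.732 and 1.01 in vsra-1 worms, 0.966, 0.716 and 0.782 in pals-22 worms, and 1.13, 0.932, 1.06 and 1.03 in wild type. Its difference between pals-22 worms and wild type, -0.35 ± 0.14, had p = 0.086 (exact permutation test, adjusted p = 0.20).

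The small RNA tables were read as counts of reads antisense to each gene. The strand setting is not given with them, so this is an inference from 1 locus. The microRNA gene mir-1 had at most 0.222 RPM (reads relative to the library total), whereas T09B4.14, annotated on the opposite strand at the same place, had 73048 to 219606 RPM. On this reading mature microRNAs themselves are not measured for their own genes here. Antisense small RNAs in worms are largely made on mRNA templates by RNA-dependent RNA polymerases, and can silence the gene they match. Per kilobase of transcript, ain-2 held the most in each group (12.9 to 15.9 CPM per kilobase over the 6 group means), ain-1 was next (4.93 to 8.61), then alg-1 (1.43 to 3.65), and alg-2 had the fewest (0.995 to 1.10).

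Small RNAs on ain-1 were called in pals-22 worms of both backgrounds, in opposite directions. In N2, ain-1 had 22.02, 21.1 and 23.8 CPM of small RNA reads in pals-22 worms, against 16.7, 13.5 and 14.99 CPM in wild type, and changed on the log2 scale by 0.55 ± 0.10 (adjusted p = 0.00076, edgeR). In otIs356 it had 13.97, 12.1 and 12.3 CPM in pals-22 worms, against 22.3, 23.3, 19.4 and 20.9 CPM in wild type, and changed on the log2 scale by -0.75 ± 0.09 (adjusted p = 2.0e-05, edgeR). Neither comparison had overlapping groups. Whether reads were counted over exons or over whole genes is not given in the sources used here, and reads antisense to ain-1 within the 149 bases of C06G1.12 cannot be told apart from sense reads of that gene. In the fit of both backgrounds the change in otIs356 minus that in N2 was -1.28 ± 0.12 (adjusted p = 8.8e-07, edgeR), and 14.4% of the 8320 genes tested were called for this difference.

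In N2 no other member was called. There alg-1 had 8.76, 7.28 and 8.25 CPM of small RNA reads in pals-22 worms, against 6.14, 7.27 and 6.99 CPM in wild type (log2 fold change 0.27 ± 0.13, adjusted p = 0.13, edgeR), and ain-2 had 38.3, 36.2 and 39.1 CPM, against 38.8, 40.7 and 35.7 CPM (-0.02 ± 0.07, adjusted p = 0.90, edgeR). alg-2 did not reach the minimum of 5 RPM in any N2 library (3.44, 4.02 and 3.44 CPM in pals-22 worms, against 5.28, 3.22 and 3.52 CPM in wild type). In fits of the N2 table alone it was tested only without that minimum (log2 fold change -0.17, adjusted p = 0.64, edgeR). Of the 3 members tested, 1 was called higher, where 18.3% of the 7243 genes tested were called higher and 20.8% lower. Library-total scaling moved the median of all genes by 0.34 on the log2 scale, and under it alg-1 (0.62, adjusted p = 0.0015, edgeR) and ain-2 (0.33, adjusted p = 0.0027, edgeR) were called as well. The median of all genes was then 0.35, so ain-2 lay near it. alg-1 was also called without pals-22 library 2 (0.34, adjusted p = 0.077, edgeR).

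In otIs356, alg-1 had 7.24, 9.65 and 9.83 CPM of small RNA reads in pals-22 worms, against 17.2, 19.1, 19.7 and 13.3 CPM in wild type, and changed on the log2 scale by -0.97 ± 0.29 (adjusted p = 0.029, edgeR). The call was lost without pals-22 library 1 (-0.82, adjusted p = 0.12, edgeR). ain-2 had 39.9, 39.1 and 39.3 CPM in pals-22 worms, against 53.9, 45.2, 46.6 and 41.0 CPM in wild type (-0.24 ± 0.08, adjusted p = 0.057, edgeR), a call that 5 of the 7 fits without 1 library lost. It was also lost with library totals (-0.16, adjusted p = 0.48, edgeR), with no filter on low counts (adjusted p = 0.20, edgeR) and with the compared groups alone (adjusted p = 0.17, edgeR). alg-2 had 3.32, 3.25 and 4.62 CPM, against 3.87, 3.56, 3.92 and 4.57 CPM in wild type. It passed the minimum of 5 RPM in this table only through library 1 of the vsra-1 double mutant, at 5.80 RPM. Thus 3 of the 4 members were called lower, where 14.6% of the 8042 genes tested were called lower and 11.7% higher. For alg-1 the difference between backgrounds was -1.21 ± 0.38 (adjusted p = 0.049, edgeR), and for ain-2 -0.20 ± 0.11 (adjusted p = 0.31, edgeR). alg-1 in wild type also stood at other levels in the 2 tables, 13.3 to 19.7 CPM in otIs356 and 6.14 to 7.27 CPM in N2, each table scaled on its own.

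**Figure D4:**
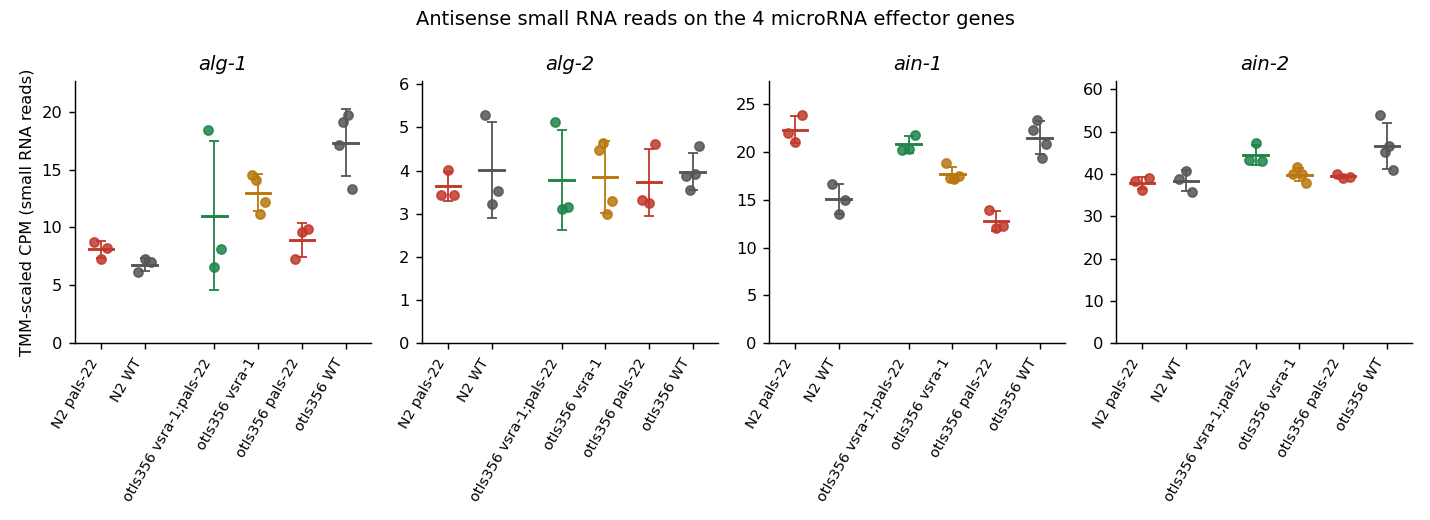
Antisense small RNA reads on the 4 genes, in CPM after TMM scaling within each table, with 1 point per library, a line at each group mean and bars of 1 SD. For ain-1, pals-22 worms lie above wild type in N2 (21.1 to 23.8 against 13.5 to 16.7 CPM) and below it in otIs356 (12.1 to 13.97 against 19.4 to 23.3 CPM).

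Small RNAs on ain-1 also differed between worms with and without the vsra-1 mutation, upward among pals-22 mutants and downward otherwise. In the vsra-1 double mutant ain-1 had 20.2, 20.3 and 21.8 CPM, against 13.97, 12.1 and 12.3 CPM in pals-22 worms, a log2 fold change of 0.70 ± 0.09 (adjusted p = 0.00013, edgeR), and it was the 1 member called, where 6.69% of all genes tested were called higher. In vsra-1 worms it had 18.9, 17.2, 17.1 and 17.4 CPM, against 22.3, 23.3, 19.4 and 20.9 CPM in wild type, and changed on the log2 scale by -0.28 ± 0.08 (adjusted p = 0.065, edgeR), again the 1 member called, where 2.3% of all genes tested were called lower. The interaction, the difference between these 2 effects of vsra-1, was 0.99 ± 0.12 for ain-1 (adjusted p = 7.4e-05, edgeR) and 0.41 ± 0.12 for ain-2 (adjusted p = 0.058, edgeR), and 5.76% of all genes tested were called with a positive interaction. ain-1 in the double mutant overlapped otIs356 wild type (20.2 to 21.8 against 19.4 to 23.3 CPM).

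Several of these calls turned on single libraries. The ain-1 call in vsra-1 worms was lost in 5 of the 8 fits without 1 library and the ain-2 interaction in 6 of 14, with effects that kept their direction. Against vsra-1 worms the double mutant had more ain-1 small RNAs, 20.2, 20.3 and 21.8 CPM against 18.9, 17.2, 17.1 and 17.4 CPM (0.23 ± 0.08, adjusted p = 0.063, edgeR), where 12.1% of all genes tested were called higher, and that call was lost in 6 of 7 such fits. alg-1 had 18.4, 6.55 and 8.13 CPM in the double mutant, against 14.5, 14.1, 11.2 and 12.2 CPM in vsra-1 worms, and library 1 of the double mutant stood apart. Without it the log2 fold change of alg-1 against vsra-1 worms was -0.81 (adjusted p = 0.011, edgeR), and with it -0.24 ± 0.28 (adjusted p = 0.62, edgeR). ain-2 had 43.4, 47.3 and 43.1 CPM in the double mutant and 40.1, 41.5, 39.9 and 37.9 CPM in vsra-1 worms (0.16 ± 0.08, adjusted p = 0.21, edgeR). alg-2 lay between 2.99 and 5.13 CPM in every otIs356 library.

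**Figure D5:**
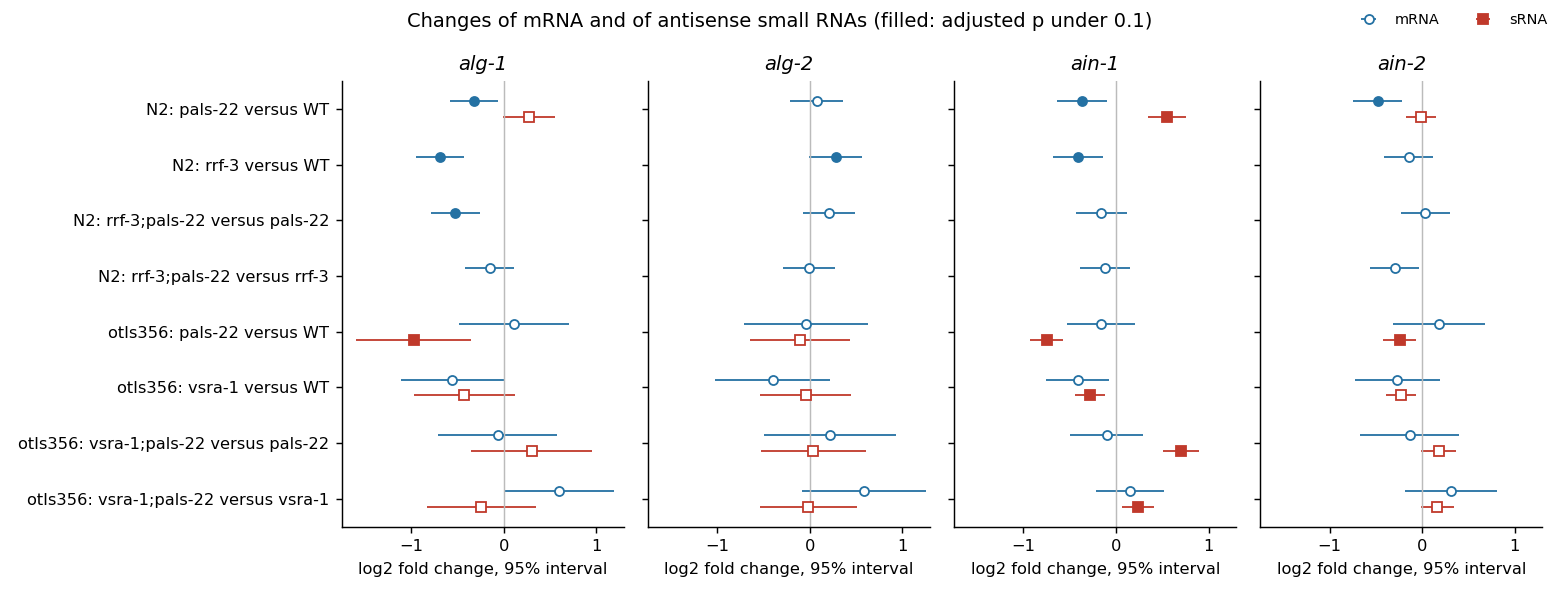
Log2 fold changes with 95% intervals of mRNA (circles) and of antisense small RNAs (squares) for the 4 genes, filled where the adjusted p was under 0.1. For ain-1 in pals-22 worms against wild type, the small RNA change is 0.55 in N2 and -0.75 in otIs356, beside mRNA changes of -0.37 and -0.16.

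The changes of small RNAs and of mRNA are set side by side here, and the relation between them was not tested. In pals-22 worms against wild type, ain-1 had a small RNA change of 0.55 and an mRNA change of -0.37 in N2, but -0.75 and -0.16 in otIs356, where the mRNA change had a 95% interval of -0.53 to 0.21. alg-1 had 0.27 and -0.32 in N2, and -0.97 and 0.11 in otIs356, opposite in sign in each background, but the 0.27 and the 0.11 were not called. In vsra-1 worms against wild type the alg-1 changes had the same sign, -0.43 and -0.56. In the vsra-1 double mutant they were 0.30 and -0.07 against pals-22 worms, and -0.24 and 0.60 against vsra-1 worms. None of these vsra-1 values of alg-1 was called. The mRNA change of alg-1 in otIs356 pals-22 worms had a 95% interval of -0.48 to 0.71. ain-2, whose mRNA fell by 0.48 in N2, had a small RNA change there of -0.02 with a 95% interval of -0.17 to 0.14.

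Over the 14 otIs356 mRNA libraries the correlation of log2(CPM + 1) between alg-1 and alg-2 was r = 0.89, and over the 10 N2 libraries it was -0.48. For alg-1 and ain-1 it was 0.75 over the otIs356 libraries and 0.89 over the N2 libraries, and for ain-1 and ain-2 0.74 and 0.75. For ain-2 and alg-1 it was 0.79 over the otIs356 libraries and 0.43 over the N2 libraries, for ain-1 and alg-2 0.80 and -0.14, and for ain-2 and alg-2 0.71 and 0.23. The points share genotype and library depth, and genotypes are pooled, so these values are descriptions.

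Among the 14112 genes compared, the mRNA most like alg-1 was lin-66 (r = 0.98 over the N2 libraries and 0.97 over the otIs356 libraries), followed by pkn-1 and C11E4.6. lin-66 is a gene of the developmental timing pathway that acts on lin-28, itself a microRNA target. The mRNA most like alg-2 was xrn-2 (0.93 and 0.92), the exonuclease that degrades mature microRNAs released from Argonaute, followed by tebp-2, a telomere-binding protein, and cul-1, a ubiquitin ligase scaffold. For ain-1 they were tol-1, slo-1, a potassium channel of neurons and muscle, and bltp-2, with a smaller r of at least 0.87, and for ain-2 they were sfa-1, a splicing factor, W05H9.2 and T08A11.1, with a smaller r of at least 0.88. These genes were picked as the highest of the 14112, with genotypes pooled, so a high r follows from the selection. Whether they share a role with the members was not tested.

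Of 50 other genes that make, assist or answer to microRNAs, in 5 lists, 9 rose and 19 fell past the threshold in N2 pals-22 worms against wild type, with a median log2 fold change of -0.18 beside -0.02 over all genes. These are 28 of 50, where 51.1% of all genes tested were called in either direction. In rrf-3 worms 11 were called higher and 24 lower (median -0.27 beside -0.02), 35 of 50 where 67.7% of all genes were called. In the rrf-3 double mutant 7 were called higher and 10 lower against pals-22 worms, 17 of 50 where 35.6% of all genes were called, and 2 higher and 0 lower against rrf-3 worms, where 7.45% of all genes were. In otIs356, 3 rose and 4 fell in pals-22 worms against wild type, and 6 rose and 1 fell in the vsra-1 double mutant against vsra-1 worms, in each case 7 of 50 where 10.9% of all genes were called. None was called by edgeR in vsra-1 worms against wild type (13 had an unadjusted p under 0.05 and DESeq2 called 10) or in the vsra-1 double mutant against pals-22 worms (0 had an unadjusted p under 0.05 and DESeq2 called 0). In both comparisons edgeR called 0.00598% of all genes tested, a single gene. The shares of all genes at that unadjusted p or in DESeq2 are not given, so the 13 and the 10 cannot be set against them.

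Of these 50 genes, 5 (10%) were called in the same direction in pals-22 worms of both backgrounds, where 1459 of the 16619 genes tested in both (8.78%) were. Without 1 library at a time, rde-1 was called in every fit of both backgrounds. In otIs356, 6 of the 7 such fits lost the call of ntl-9, 6 that of rack-1 and 5 that of hsp-90, and in N2, 1 of 5 lost that of vig-1 and 1 that of rack-1. rde-1, an Argonaute that loads exogenous siRNAs and some microRNAs, averaged 103.7 CPM in pals-22 worms and 32.2 CPM in wild type in N2 (log2 fold change 1.69 ± 0.07, adjusted p = 4.9e-07, edgeR), and 62.4 CPM and 26.1 CPM in otIs356 (1.26 ± 0.22, adjusted p = 0.0042, edgeR). It was also the largest change of its list in the rrf-3 double mutant against rrf-3 worms (1.90) and in the vsra-1 double mutant against vsra-1 worms (1.65). ntl-9, a subunit of the CCR4-NOT deadenylase, rose in both backgrounds (1.16 in N2 and 1.05 in otIs356), as did hsp-90, the chaperone also named daf-21 (0.78 and 0.79). vig-1 and rack-1, cofactors found with the microRNA complex, fell in both (-0.58 and -0.51 in N2, -0.91 and -0.65 in otIs356).

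Among all genes tested, 67.7% were called in rrf-3 worms and 51.1% in N2 pals-22 worms, the background for each list. By direction, 31.9% were called higher and 35.8% lower in rrf-3 worms, and 23.3% higher and 27.8% lower in N2 pals-22 worms. In rrf-3 worms the list of microRNA processing factors and other Argonautes had 3 genes called higher and 2 lower of 5, led by alg-5 (1.36 ± 0.19, adjusted p = 0.00037, edgeR), a germline Argonaute that binds microRNAs. That of cofactors had 1 higher and 5 lower of 9, and the 1 that rose, hsp-90 (1.23), had the largest change. That of deadenylation and decapping factors had 4 higher and 7 lower of 19, led by the translational repressor ifet-1 (-0.68). That of small RNA decay had 1 higher and 1 lower of 5, led by xrn-2 (0.59). Of 12 genes reported as microRNA targets, 2 were called higher and 9 lower (median -0.68). The largest change went against most of the list, in the cell death gene egl-1 (2.56 ± 0.24, adjusted p = 4.7e-05, edgeR). In N2 pals-22 worms the same lists, in the same order, had 2 higher and 0 lower, 2 and 6, 3 and 6, 0 and 1 (paxt-1, the partner of XRN-2, at -0.28), and, for the targets, 2 and 6, with egl-1 again the largest (0.99). In otIs356 pals-22 worms the 1 target called of the 12 was lin-41 (-1.27), the let-7 target of the heterochronic pathway. There 10.9% of all genes tested were called in either direction.

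Tissue markers moved with these comparisons, and their part in the results was not tested. Of all genes tested, 31.9% were called higher and 35.8% lower in rrf-3 worms, and 23.3% higher and 27.8% lower in N2 pals-22 worms. In otIs356 pals-22 worms 10.9% were called in either direction. A few calls in a marker list were therefore common in the N2 comparisons. The summed level of 3 body muscle genes was 837 and 867 CPM in the rrf-3 double mutant, 666 to 944 CPM in rrf-3 worms and 889 to 1514 CPM in pals-22 worms, against 1375 and 2108 CPM in N2 wild type, and all 3 genes were called lower in rrf-3 worms. That of 7 germline genes was 26.5 and 39.7 CPM in the double mutant, 36.9 to 41.6 CPM in rrf-3 worms and 18.4 to 26.01 CPM in pals-22 worms, against 7.55 and 12.5 CPM in wild type, with 5 called higher in rrf-3 worms and 4 in pals-22 worms. That of 6 sperm genes was 59.3 to 202 CPM in pals-22 worms, against 6.02 and 16.6 CPM in wild type, with 5 called higher. The summed level of 6 yolk protein genes, a sign of adult worms, was 11.8 to 29.6 CPM in N2 pals-22 worms. In N2 wild type it was 2.72 and 13.7 CPM, so these groups overlapped, and 0 yolk genes were called. The yolk sum was lower in rrf-3 worms, 1.298 to 2.12 CPM, with 3 genes called lower than in wild type. It was also lower in otIs356 pals-22 worms, 3.498 to 6.77 CPM against 11.7 to 22.3 CPM in wild type, with 0 called. The highest yolk sums were in single libraries of other groups. The rrf-3 double mutant had 4.41 and 55.3 CPM, with 3 genes called higher than in rrf-3 worms, where 7.45% of all genes were called. In otIs356 the sum was 5.36 to 64.4 CPM in vsra-1 worms and 3.01 to 145 CPM in the vsra-1 double mutant, with 0 called. In otIs356 the body muscle sum was 1401 to 1757 CPM in pals-22 worms, against 3124 to 4220 CPM in wild type, with 2 of 3 genes called lower. The 4 neuronal genes summed to 531 to 556 CPM in rrf-3 worms and 501 to 528 CPM in pals-22 worms, against 536 and 574 CPM in N2 wild type, with 1 called higher (snb-1) and 3 lower in rrf-3 worms, namely unc-104 (-1.07), rgef-1 (-0.84) and rab-3 (-0.69), and 2 lower in pals-22 worms. The 4 intestinal genes summed to 669 to 987 CPM in rrf-3 worms and 1136 to 1251 CPM in pals-22 worms, against 1191 and 1246 CPM in N2 wild type, with 1 called higher and 2 lower in rrf-3 worms and 2 each way in pals-22 worms. The 3 epidermal genes summed to 22.7 to 30.6 CPM in rrf-3 worms and 41.0 to 54.8 CPM in pals-22 worms, against 18.3 and 29.9 CPM in N2 wild type, with 1 called higher and 1 lower in rrf-3 worms and 2 higher in pals-22 worms. No marker list had all its genes at 0 in any group.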

How the data were processed

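Per the study's methods, mRNA reads were quantified with kallisto and small RNA reads of 15 to 30 bases were trimmed with CutAdapt, aligned to ce11 with ShortStack and counted with featureCounts. The mRNA tables deposited by the authors hold estimated counts per gene that are not whole and are scaled by transcript length, and they were rounded before testing. The small RNA tables deposited by the authors hold raw counts per gene. Groups were taken from the labels, and every library of a table entered 1 fit with edgeR 4.0.16 in R 4.3.3 (TMM, quasi-likelihood test, two-sided, Benjamini-Hochberg over all genes tested, called at an adjusted p under 0.1). mRNA genes passed filterByExpr (minimum count 10, minimum total 15), and small RNA genes needed over 5 RPM in at least 1 library. Ratios used counts + 0.5 and an exact permutation test. The difference between backgrounds came from 1 joint fit per kind of RNA, added after the data were seen. DESeq2 1.42.0, other scalings and filters, a replicate block, the compared groups alone and fits without each library were the alternatives. Code was tested on simulated data. The members and lists were chosen with earlier results of these data known. Named genes were the members, list genes called alike in both pals-22 comparisons, the largest called change per list, and the 3 mRNAs most like each member. Intervals cover the fit's error, and counts are not independent molecules.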

Additional observations from a re-analysis of the deposited data

Results flagged for a closer look

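Effects of 1 contrast differed between groups, by a test of the difference itself, in 4 cases, all of small RNAs. The difference between backgrounds was called for 14.4% of all genes tested in small RNAs and 0.552% in mRNA. The vsra-1 interaction was called positive for 5.76% in small RNAs, and in either direction for 0.00598% in mRNA. The rrf-3 interaction, tested in mRNA only, was called for 37.1%. For ain-1 the pals-22 change in otIs356 minus that in N2 was -1.28 on the log2 scale (adjusted p = 8.8e-07, edgeR), and for alg-1 it was -1.21 (adjusted p = 0.049, edgeR). Strain background and experiment cannot be told apart in these 2 values. Within otIs356, the effect of vsra-1 differed with and without PALS-22 by 0.99 for ain-1 (adjusted p = 7.4e-05, edgeR) and by 0.41 for ain-2 (adjusted p = 0.058, edgeR). In the 20 sets of 4 values checked, all from otIs356 wild type and vsra-1 worms, no library stood apart by Dixon's criterion. Smaller groups were not part of that check.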

How the results depend on the processing

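The calls of ain-1 small RNAs in pals-22 worms of both backgrounds, in the vsra-1 double mutant against pals-22 worms and in the interaction held under every alternative run. With library totals, members called in N2 mRNA were 0 in pals-22 worms (1 with the compared groups alone) and 1 in rrf-3 worms, where ain-1 (0.054) and ain-2 (0.32) turned positive. They were 3 in N2 small RNAs, with ain-2 at 0.33, near the median of all genes under that scaling (0.35). Totals also turned the N2 interaction of alg-1 (-0.18), ain-1 (-0.10) and ain-2 (-0.17), otIs356 mRNA of alg-2 (0.17) and ain-1 (0.076) in pals-22 worms, and small RNAs of alg-2 in vsra-1 worms (0.15). DESeq2 called 1 member in the rrf-3 double mutant against rrf-3 worms, and 2 in small RNAs of vsra-1 worms. The small RNA call in vsra-1 worms went to 0 at an adjusted p under 0.05, with totals, with no filter, with filterByExpr and with the compared groups alone. The call in the vsra-1 double mutant against vsra-1 worms went to 0 under the first 4 of these and under the replicate block, and the interaction calls went to 1 under the first 4. alg-2 in the rrf-3 double mutant against rrf-3 worms, near 0, became 0.011 with no filter and 0.0028 with the compared groups alone, and its small RNAs in the vsra-1 double mutant against vsra-1 worms became 0.0013 with RLE factors and 0.0029 with DESeq2. The cause of these changes was not tested beyond the scaling itself.

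The labels do not say whether same-numbered libraries share a batch, so replicate numbers were not used as pairs in the main fits. Same-numbered libraries deviated together (correlation over 0.1) in 1 of 13 pairs of N2 mRNA, 1 of 3 of N2 small RNA, 8 of 19 of otIs356 mRNA and 1 of 19 of otIs356 small RNA. In otIs356 mRNA these correlations reached 0.49, with a median of -0.01 beside -0.02 for pairs of other numbers. With the replicate block 2 members, alg-1 (0.75) and alg-2 (0.88), were called in otIs356 mRNA of the vsra-1 double mutant against vsra-1 worms, alg-2 became 0.047 (0.025 by library name number) in the rrf-3 double mutant against rrf-3 worms, 0.037 in the N2 interaction and 0.25 in otIs356 pals-22 worms. The alg-2 mRNA call in N2 rrf-3 worms was lost under both blocks (0.22 and 0.26, adjusted p = 0.18 and 0.12, edgeR).

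Of the 50 pathway genes, those called in the rrf-3 double mutant against rrf-3 worms were 1 with RLE factors or either replicate block and 4 with DESeq2. In otIs356 they were 15 in pals-22 worms with the block, 10 in vsra-1 worms with DESeq2, and 11 with DESeq2 and 14 with the block in the vsra-1 double mutant against vsra-1 worms. The shares of all genes called under these settings are not given.

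Without 1 library at a time, members called ranged from 1 to 3 in N2 pals-22 mRNA, 0 to 2 in the rrf-3 double mutant against pals-22 worms, 1 to 2 in N2 small RNAs, 0 to 1 in otIs356 mRNA of the vsra-1 double mutant against vsra-1 worms and, in otIs356 small RNAs, 1 to 3 in pals-22 worms, 0 to 2 in vsra-1 worms, 0 to 1 in the double mutant against vsra-1 worms and 1 to 2 in the interaction. Pathway genes called ranged from 17 to 32 in N2 pals-22 worms, 8 to 19 and 1 to 5 in the rrf-3 double mutant against pals-22 and rrf-3 worms, and, in otIs356, 2 to 14 in pals-22 worms and 2 to 11 in the double mutant against vsra-1 worms. In otIs356 the alg ratio ranged from -0.17 to 0.065 in vsra-1 worms and -0.19 to 0.011 in the double mutant against vsra-1 worms, and the ain ratio from -0.053 to 0.16 in the double mutant against pals-22 worms. Changes of sign, all in values not called, were as follows. In N2 mRNA, alg-2 ranged from -0.053 to 0.20 in pals-22 worms, -0.10 to 0.10 in the rrf-3 double mutant against rrf-3 worms and -0.20 to 0.051 in the interaction, and ain-2 from -0.055 to 0.15 in the double mutant against pals-22 worms. In N2 small RNAs ain-2 ranged from -0.071 to 0.015. In otIs356 mRNA, alg-1 ranged from -0.053 to 0.35 and alg-2 from -0.16 to 0.23 in pals-22 worms, alg-1 from -0.35 to 0.10 and alg-2 from -0.034 to 0.37 in the double mutant against pals-22 worms, and ain-2 from -0.030 to 0.30 in the interaction. In otIs356 small RNAs, alg-2 ranged from -0.15 to 0.060 in vsra-1 worms, -0.058 to 0.21 and -0.12 to 0.10 in the double mutant against pals-22 and vsra-1 worms and -0.024 to 0.25 in the interaction, and alg-1 from -0.29 to 0.57 in the double mutant against pals-22 worms. Against vsra-1 worms alg-1 ranged from -0.81, called without double mutant library 1, to 0.020. alg-2 small RNAs rest on 32 to 168 reads per library, the fewest of the 4 genes.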
